A study of Danio rerio with 20 samples.

Results

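The brains of zebrafish (Danio rerio) that had been exercised were compared between 3 years and 1 year of age. The libraries were those labelled with the swim-tunnel perturbation, 5 from each age, which makes 10 of the 20 libraries of the series. All 20 came from brains of male fish of the strain label AB JxTu, and the other 10 came from fish of the same 2 ages that had no exercise. In a swim tunnel, fish are made to swim upstream in flowing water. The duration and speed of swimming, the time from the last swim to sampling, the time of day and any batch were not stated in the labels. The labels do not say that each library came from a separate fish, so the p-values speak only of the spread among these samples, which may be technical. Age was compared between different fish, so it cannot be told apart from differences in rearing, cohort or genotype. Here rose and fell mean higher and lower in the older group, and younger and older fish stand for the libraries of each age.

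The brain of an ageing vertebrate holds neurons, radial glia and other astroglia, oligodendrocytes that make myelin, blood vessels, and microglia, the resident phagocytes of the brain. Microglia take up debris, digest it in lysosomes and display peptides on major histocompatibility complex (MHC) molecules, and interferons raise the genes of antigen display and of antiviral defence. Neurons depend on a steady supply of respiratory energy and of cholesterol, which the brain makes locally through a pathway under the control of the sterol regulatory factor SREBP2. Adult zebrafish keep dividing progenitors in many brain regions, and nearly all their tissues carry a circadian clock that light resets.

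The libraries of the exercised fish held 23.4 to 31.9 M counts at 1 year and 26.7 to 34.6 M at 3 years. The markers chosen to check the tissue were present in all 10 libraries. The neuronal gene ELAVL3 lay between 263 and 348 CPM (counts per M counts of the library), the astroglial gene GFAP between 46.1 and 136 CPM and the myelin gene mbpa between 7475 and 13742 CPM. The first principal component of log2 CPM over these 10 libraries carried 34.7% of the variance and placed the 5 libraries of 1 year at 31.2 to 47.7 and those of 3 years at -98.7 to -14.6. The extreme value of -98.7 belonged to 3-year exercised replicate 1, and the next lowest was -42.7.

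Markers of other tissues were raised in some libraries. Scores here are the mean log2 CPM of the tested genes of a list. The skeletal muscle score was 3.88 and 2.86 in replicates 1 and 4 of the 3-year group, against 0.46 to 1.81 in the other 8. The retina and pineal score was 3.11 in replicate 3 of the 1-year group and 2.85 and 2.88 in replicates 2 and 4 of the 3-year group, against 0.31 to 0.94 in the other 7. For pituitary genes the highest score, 2.25, was again that of 3-year exercised replicate 1. That library also had the highest scores of the microglial, MHC class I, interferon, T cell and lysosomal lists, as the plot of list scores shows.

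**Figure D1:**
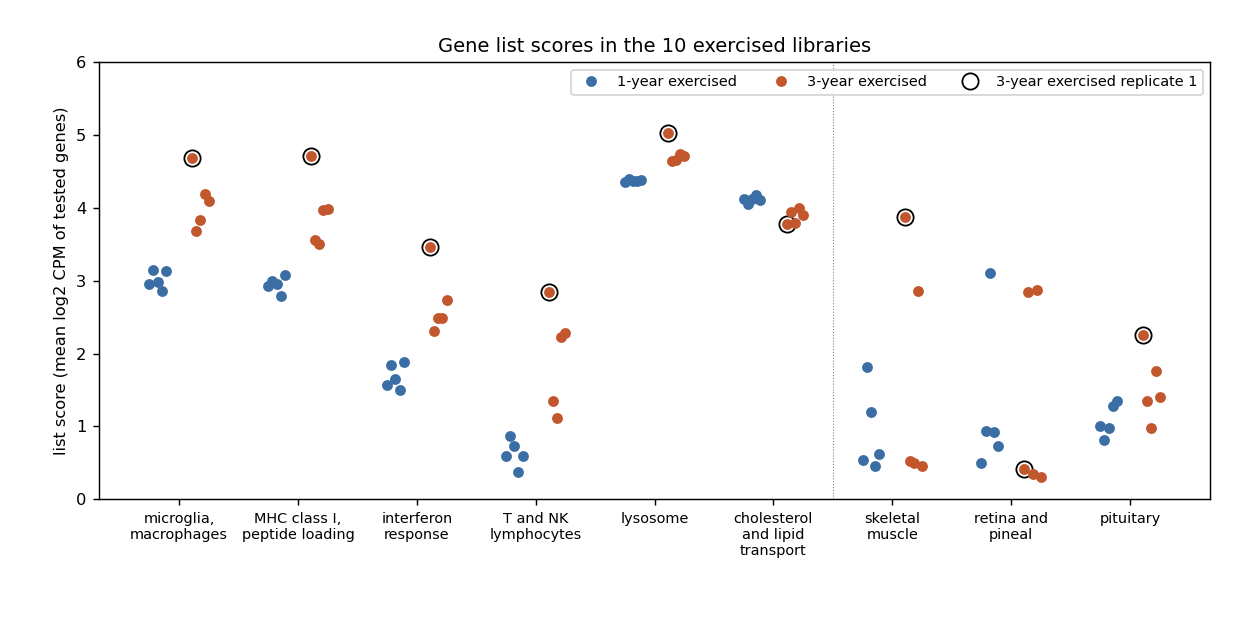
Scores of 9 gene lists (mean log2 CPM of the tested genes, vertical axis) in each of the 5 libraries of 1-year (blue) and 3-year (orange) exercised fish, with 3-year exercised replicate 1 ringed; lists left of the dotted line are of brain cells and pathways and those right of it of other tissues. The microglial scores ran from 2.86 to 3.15 at 1 year and from 3.69 to 4.68 at 3 years, while the retina scores of the 2 ages overlapped.

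Of 21148 genes tested, 2252 differed between the ages in exercised fish, 10.6% of those tested, at an adjusted p below 0.05 in edgeR's quasi-likelihood test. Of these, 1432 were higher at 3 years (6.77% of genes tested) and 820 lower (3.88%). The increases were the larger changes: their median log2 fold change was 1.15 and that of the decreases -0.42, and 778 increases but 115 decreases were more than 2-fold. The median over all genes was 0.01. In 2395 genes (11.3%) the 5 values of 1 age lay wholly above the 5 of the other, and 1551 of the called genes were among them.

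The count of calls rested on the number and choice of libraries. Of the calls, 787 (3.72% of genes tested) were also called in each of the 10 fits that left out 1 exercised library, 521 of them higher and 266 lower. The count fell to 899 if 3-year exercised replicate 1 was left out, and to 1181, 1278 and 1277 for 1-year exercised replicates 3, 4 and 5. Every one of the 2252 calls that was tested kept its direction in each of these 10 fits (2251 were tested without 3-year exercised replicate 5), and their median log2 fold change without 3-year exercised replicate 1 was 0.97 for increases and -0.37 for decreases. Without all 4 exercised libraries with raised muscle, retina or pituitary scores, which left 4 libraries against 2, 9 genes were called. The unexercised libraries, with muscle scores of up to 4.88 at 1 year and 2.66 at 3 years, stayed in this fit. The 2252 calls kept their direction there in 2247 cases, with medians of 0.93 and -0.38. All these fits reuse libraries that gave the calls, so a kept direction was largely set in advance and is not independent evidence.

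Among the 12 largest increases were a gene of MHC class II, interferon-induced genes and chemokine genes. mhc2dab, a beta chain of MHC class II, stood at 3.87, 3.75, 3.13, 2.44 and 3.02 CPM in the 1-year libraries and at 322, 4.2, 5.26, 72.6 and 124 CPM in the 3-year libraries. All 5 values of the older fish lay above those of the younger, although those of replicates 2 and 3 did so by little. The log2 fold change was 5.02 ± 1.17 (standard error, adjusted p = 0.0135). ifi44a6, of a family of interferon-induced proteins, rose from 0.101 ± 0.057 to 15.3 ± 17.7 CPM (SD, n = 5 each). The antiviral GTPase gene mxc, which interferon induces, rose from 0.476 ± 0.197 to 12.8 ± 14.4 CPM (a log2 fold change of 4.73 ± 1.13, adjusted p = 0.0149). Its values at 3 years were 32.3, 3.07, 1.24, 3.44 and 24.2 CPM, so the 3-year libraries varied widely in this gene. The other 9 of the 12 largest increases were ccl38a.4, cxcl11.1 and cxcl11.4, which encode chemokines, lgals3bp.2 and lgals3bp.3, which encode galectin-3-binding proteins, ftr43, of the finTRIM family, mxf, grna.1 and gstk2. lgals3bp.3 rose from 0.16 ± 0.0893 CPM to 5.15, 4.17, 5.55, 9.13 and 4.8 CPM. A pair of genes of this set had almost no reads at 1 year. gstk2, a glutathione transferase, had 2 counts over the 5 libraries of 1 year and 180 at 3 years, a ratio of 79.8 with an exact 95% counting interval of 21.8 to 664, and cxcl11.4 had 2 and 369 (ratio 164, interval 45 to 1357).

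The largest decreases were of varied function. FAH, the last enzyme of tyrosine breakdown, stood at 6.96, 5.58, 6.61, 6.92 and 6.31 CPM in younger fish and at 0.552, 0.676, 0.392, 0.801 and 0.819 CPM in older fish. The groups were far apart and each was even, and the gene fell by 3.31 ± 0.57 in log2 units (adjusted p = 0.00374). GTF3C3, a subunit of the factor that recruits RNA polymerase III, fell from 53.6 ± 8.61 to 18.1 ± 1.6 CPM, and its 3-year values spanned only 16.4 to 20.6 CPM. SQLE (ENSDARG00000079946), a rate-limiting enzyme of cholesterol synthesis, was also in this set and is given with its pathway below. cyp2k16, a cytochrome P450, fell from 1.2 ± 0.151 to 0.214 ± 0.105 CPM, and RBP2 (ENSDARG00000093774), a cellular retinol-binding protein, from 1.89 ± 0.499 to 0.411 ± 0.119 CPM. dicp1.16, of a fish family of immunoglobulin-domain receptors, had 156 counts at 1 year and 1 at 3 years, a ratio of 176 with a counting interval of 31.1 to 6989.9. One library of 1 year, replicate 4, was low in this gene too, at 0.0344 CPM against 1.21 to 1.53 CPM in the other 4. The other genes of the 12 were cngk, srcin1b, urahb, IFITM5, mdh1b and the connexin gene GJB6. The dicp family varies in gene content between zebrafish genomes, and reads of its near-identical members may have been split, so its value is uncertain.

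Genes of microglia and macrophages were higher in the older exercised fish. Of 50 tested genes of this list 30 rose and 0 fell, 60% against 6.77% of all genes, and 49 of 50 had a positive log2 fold change, with a median of 1.19. The list score was 2.86 to 3.15 at 1 year and 3.69 to 4.68 at 3 years. lgals9l1, a galectin, was at 11.7, 12.7, 9.61, 11.6 and 15.8 CPM in younger fish and at 168, 42, 54, 56.4 and 86 CPM in older fish. Each 3-year library was above each 1-year library, and replicate 1 was the highest of the 3-year libraries (log2 fold change 2.72 ± 0.46, adjusted p = 0.00374). grna, one of the zebrafish progranulins, a secreted regulator of lysosomes, stood at 23.4, 29.4, 26.3, 24.9 and 29.6 CPM in younger fish and at 176, 58.9, 78.9, 91.6 and 84.5 CPM in older fish. Again no value was shared between the ages. The lysosomal protease gene ctss2.2 rose by 2.00 ± 0.37 and havcr1, a receptor for dying cells in mammals, by 1.23 ± 0.21 on the log2 scale. All 4 genes were called in each of the 10 fits without 1 exercised library. Other called members, named after their values were seen, were the microglial receptor genes P2RY12 (log2 fold change 1.44) and csf1rb (0.84), the phagocyte transcription factors SPI1 (1.72), spi1a (1.21) and IRF8 (2.05), and the pan-leukocyte gene ptprc (1.86). The log2 fold change of csf1ra, the second copy of the receptor that microglia need, was 0.88 (adjusted p = 0.0893). In bulk RNA, more cells of a type and more RNA of these genes per cell cannot be told apart. Without 3-year exercised replicate 1 the list had 21 members called higher and a median of 0.94.

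**Figure D2:**
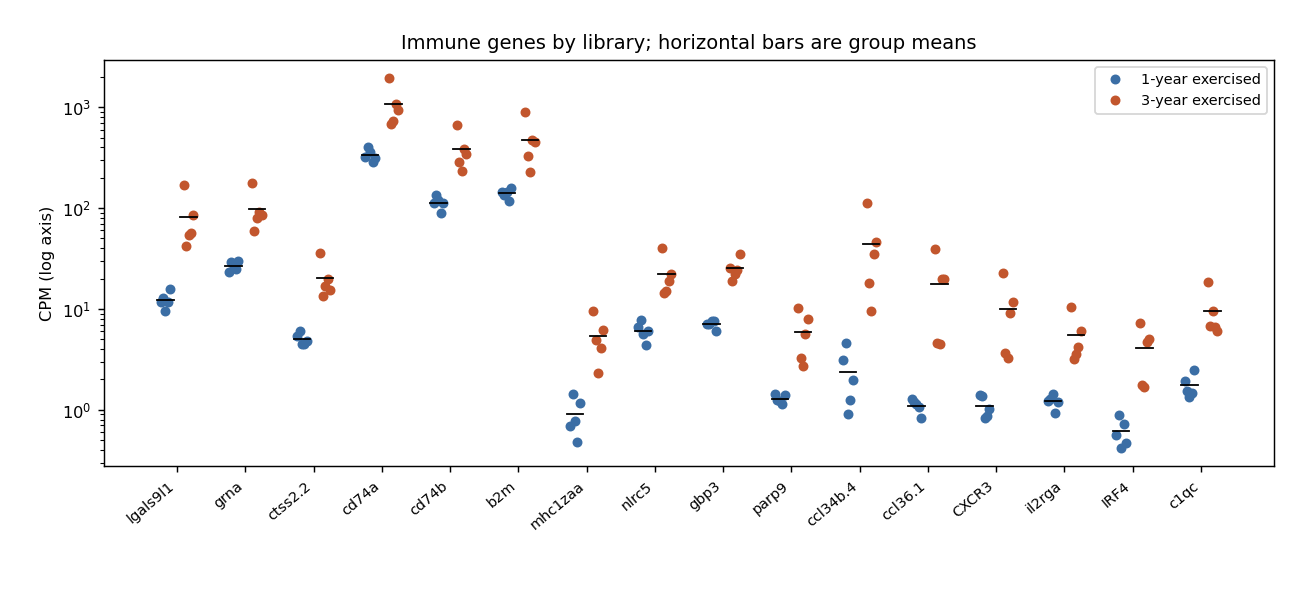
CPM on a log axis of 16 immune genes in the 5 libraries of 1-year (blue) and of 3-year (orange) exercised fish, each point 1 library and each horizontal bar the group mean. In all 16 genes the orange points lie above the blue ones, but the genes were picked from called genes and do not stand for whole lists. Of 50 tested microglial genes, the ages did not overlap in 29, and of all 21148 genes tested they did not overlap in 2395 (11.3%). The first orange point of each gene is 3-year exercised replicate 1, the highest in 15 of them.

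Genes of antigen display by both classes of MHC rose. Of 10 tested genes of the class II list, which also holds genes of antigen loading, 6 rose and 0 fell, 60% higher against 6.77% of all genes. The median log2 fold change was 1.06, with 8 positive and 2 negative. The invariant chain, which guides class II molecules to the endosome, is encoded by cd74a and cd74b. cd74a was at 319, 406, 357, 285 and 312 CPM in younger fish and at 1934, 681, 724, 1079.5 and 930.0 CPM in older fish. The lowest older fish exceeded the highest younger one, with a log2 fold change of 1.67 ± 0.34 (adjusted p = 0.00773). cd74b rose from 113 ± 16 to 384 ± 172 CPM (log2 fold change 1.76 ± 0.34). ifi30a, the thiol reductase that opens antigens for class II loading, rose from 9.27 ± 1.42 to 22.3 ± 7.63 CPM. The remaining called members were mhc2dab, LGMN (0.27), a lysosomal protease, and RFXANK (1.08), a subunit of the class II promoter factor. Without 3-year exercised replicate 1 the class II list had 4 members called higher and a median of 0.77.

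Of 30 genes of MHC class I and its peptide supply 18 rose and 1, mhc1zka, fell (called in 3 of the 10 fits without 1 exercised library). These make 60% and 3.33% against 6.77% and 3.88% of all genes, and the median log2 fold change was 1.24. b2m, the light chain shared by class I molecules, stood at 143, 134, 145, 117 and 159 CPM in younger fish and at 899.5, 331, 227, 476 and 451 CPM in older fish. No 3-year library was within the range of the 1-year libraries (log2 fold change 1.77 ± 0.39, adjusted p = 0.0111). nlrc5, the activator of class I genes in mammals, rose from 6.1 ± 1.25 to 22.1 ± 10.6 CPM, and mhc1zaa, a class I heavy chain, from 0.907 ± 0.381 to 5.44 ± 2.73 CPM. The peptide transporter gene tap2t rose by 0.66 ± 0.14 on the log2 scale. The called members also held genes of the immunoproteasome, the form of the proteasome that interferon induces and that cuts peptides for class I, and of its activator. These, chosen after their values were seen, were PSMB8 (2.11), PSMB9 (2.07), PSMB10 (0.82), psmb12 (1.52), psmb13a (2.55), PSME1 (1.63) and PSME2 (1.73). Without 3-year exercised replicate 1 the class I list had 8 members called higher and a median of 1.00. Values of single MHC genes are uncertain where reads of near-identical copies may have been split.

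The interferon response list had 23 of 49 genes higher and 0 lower, 46.9% higher against 6.77% of all genes. In this list 46 were positive, and the median log2 fold change was 1.09. gbp3, an interferon-induced GTPase, stood at 7.06, 7.05, 7.67, 7.68 and 5.98 CPM in younger fish and at 25.7, 19.1, 22.1, 24.1 and 34.8 CPM in older fish. The ages were far apart and 3-year exercised replicate 1 was not the highest, and the log2 fold change was 1.83 ± 0.27 (adjusted p = 0.00207) and 1.82 without that library. parp9, an antiviral ADP-ribosylation factor, rose from 1.29 ± 0.127 to 5.97 ± 3.13 CPM, and the transcription factor gene irf2b from 5.1 ± 0.69 to 9.83 ± 2.85 CPM. parp12b rose by 0.36 ± 0.07 on the log2 scale, a small change with groups that did not overlap. Members called higher numbered 14, 13 and 12 without 1-year exercised replicates 1, 3 and 4 and 7 without 3-year exercised replicate 1. The median without the last was 0.84.

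Of 41 genes of cytokines, chemokines and their receptors 16 rose and 1, csf1a, fell, 39% and 2.44% against 6.77% and 3.88% of all genes. The median log2 fold change was 1.01. ccl34b.4, a CC chemokine, stood at 3.09, 4.64, 0.903, 1.24 and 1.96 CPM at 1 year and between 9.54 and 112 CPM in the older fish, 112 CPM being replicate 1. The log2 fold change was 4.24 ± 0.80 (adjusted p = 0.00615), with an older group that spanned a wide range but did not reach the younger one. ccl36.1 rose from 1.1 ± 0.172 to 17.6 ± 14.2 CPM. CXCR3, the chemokine receptor of effector T cells in mammals, rose from 1.1 ± 0.277 to 10.1 ± 7.99 CPM. ccl34b.1, which zebrafish microglia express, changed less and more evenly, from 43.1 ± 3.01 to 69.6 ± 10.9 CPM (a log2 fold change of 0.69 ± 0.14, adjusted p = 0.00713). Chemokine genes stand in clusters of similar copies, so single values are uncertain. The count of members called higher was 10 without 3-year exercised replicate 1.

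Genes of lymphocytes were higher as well. Of 38 genes of the T and NK cell list 17 rose and 1 fell, 44.7% and 2.63% against 6.77% and 3.88% of all genes. The median log2 fold change was 1.83, the highest among the 37 lists of brain cells and pathways. il2rga, the receptor chain shared by several interleukins, stood at 1.21, 1.29, 1.45, 0.93 and 1.2 CPM in younger fish and at 10.5, 3.16, 3.56, 4.24 and 6.08 CPM in older fish. The levels were low but the ages did not overlap (log2 fold change 2.17 ± 0.44, adjusted p = 0.00754). IKZF1, a transcription factor of lymphoid cells, rose from 3.15 ± 0.439 to 9.95 ± 4.79 CPM. Other called members, named after their values were seen, were trbc1 (3.33) of the T cell receptor, the co-receptor gene cd8a (3.42), and lck (2.41), a kinase of T cell signalling. rorca and rorcb, which this list shares with the circadian clock list, are also nuclear receptors of the clock and are given there. The single lower member was rorc. Members called higher numbered 10, 10, 9 and 10 without 1-year exercised replicates 1, 3, 4 and 5, and 5 without 3-year exercised replicate 1.

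Of 19 genes of the B cell and plasma cell list 6 rose and 0 fell, 31.6% higher against 6.77% of all genes. These 6 were called in each of the 10 fits without 1 exercised library. The other 13 were not called, and 5 of the 19 leaned lower. The list median was 0.39 on the log2 scale, or 0.19 when 3-year exercised replicate 1 was left out. IRF4, a transcription factor of B cell activation, was at 0.558, 0.892, 0.419, 0.723 and 0.465 CPM in younger fish and at 7.29, 1.75, 1.7, 4.69 and 5 CPM in older fish. The 3-year libraries were all higher (log2 fold change 2.74 ± 0.51, adjusted p = 0.00596). blk, blnk and BTK, which carry the signal of the B cell receptor, rose by 2.39 ± 0.47, 1.89 ± 0.39 and 1.36 ± 0.28 on the log2 scale. The other called members were ighm (3.05), the immunoglobulin M heavy chain, and PRDM1, a factor of plasma cells. Of 14 neutrophil genes 2 rose and 0 fell, 14.3% higher against 6.77% of all genes. They were NCF4 of the phagocyte oxidase (log2 fold change 1.17 ± 0.29) and the protease gene MMP9 (0.76 ± 0.20), both of which other phagocytes also express. Of these, 1 was called without 1-year exercised replicates 3, 4 or 5 and 0 without 3-year exercised replicate 1.

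Few complement genes passed the test. Of 32 genes 4 rose and 0 fell, 12.5% higher against 6.77% of all genes, and the median log2 fold change was -0.16. The 3 chains of C1q, which microglia make in the brain, were among the 4. c1qc was at 1.94, 1.52, 1.35, 1.48 and 2.46 CPM in younger fish and at 18.3, 6.73, 9.5, 6.67 and 6 CPM in older fish (log2 fold change 2.43 ± 0.51, adjusted p = 0.0088). c1qa and c1qb rose by 2.05 ± 0.52 and 1.63 ± 0.42 on the log2 scale, with no overlap between the ages. cfp, properdin, which stabilizes the alternative pathway, rose by 1.35 ± 0.42 (adjusted p = 0.0488). The count of called members was 2 and 1 when replicates 3 and 4 of the 1-year group were left out, and 1 without 3-year exercised replicate 1.

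Genes of the lysosome were higher with small fold changes. Of 80 tested 33 rose and 4 fell, 41.2% and 5% against 6.77% and 3.88% of all genes, so the lower share lay near that of all genes. Of the 80, 61 had a positive log2 fold change, with a median of 0.28. The score ran from 4.36 to 4.40 at 1 year and from 4.64 to 5.03 at 3 years, so the ages did not overlap. GM2A, the activator protein of ganglioside breakdown, was at 25.6 ± 0.991 CPM in younger fish and ranged from 32.9 to 57.7 CPM in older fish. The 1-year libraries were nearly equal and all 3-year libraries were above them (log2 fold change 0.74 ± 0.12, adjusted p = 0.00303). CTSC, a protease that activates enzymes of immune granules, rose from 18.3 ± 2.41 to 43.5 ± 15.6 CPM, and MANBA, which breaks down mannose chains, from 4.23 ± 0.607 to 8.51 ± 1.87 CPM. The 4 that fell were atp6ap1a, ATP6V1A (ENSDARG00000034534), ATP6V1B2 (ENSDARG00000043465) and ATP6V1H, which encode parts of the proton pump that acidifies lysosomes and synaptic vesicles. Their log2 fold changes lay between -0.34 and -0.24, and 0 of them were called without 1-year exercised replicates 1, 4 or 5 or 3-year exercised replicates 1 or 3, and 2 without 1-year exercised replicate 3. The members called higher numbered 16 without 3-year exercised replicate 1.

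**Figure D3:**
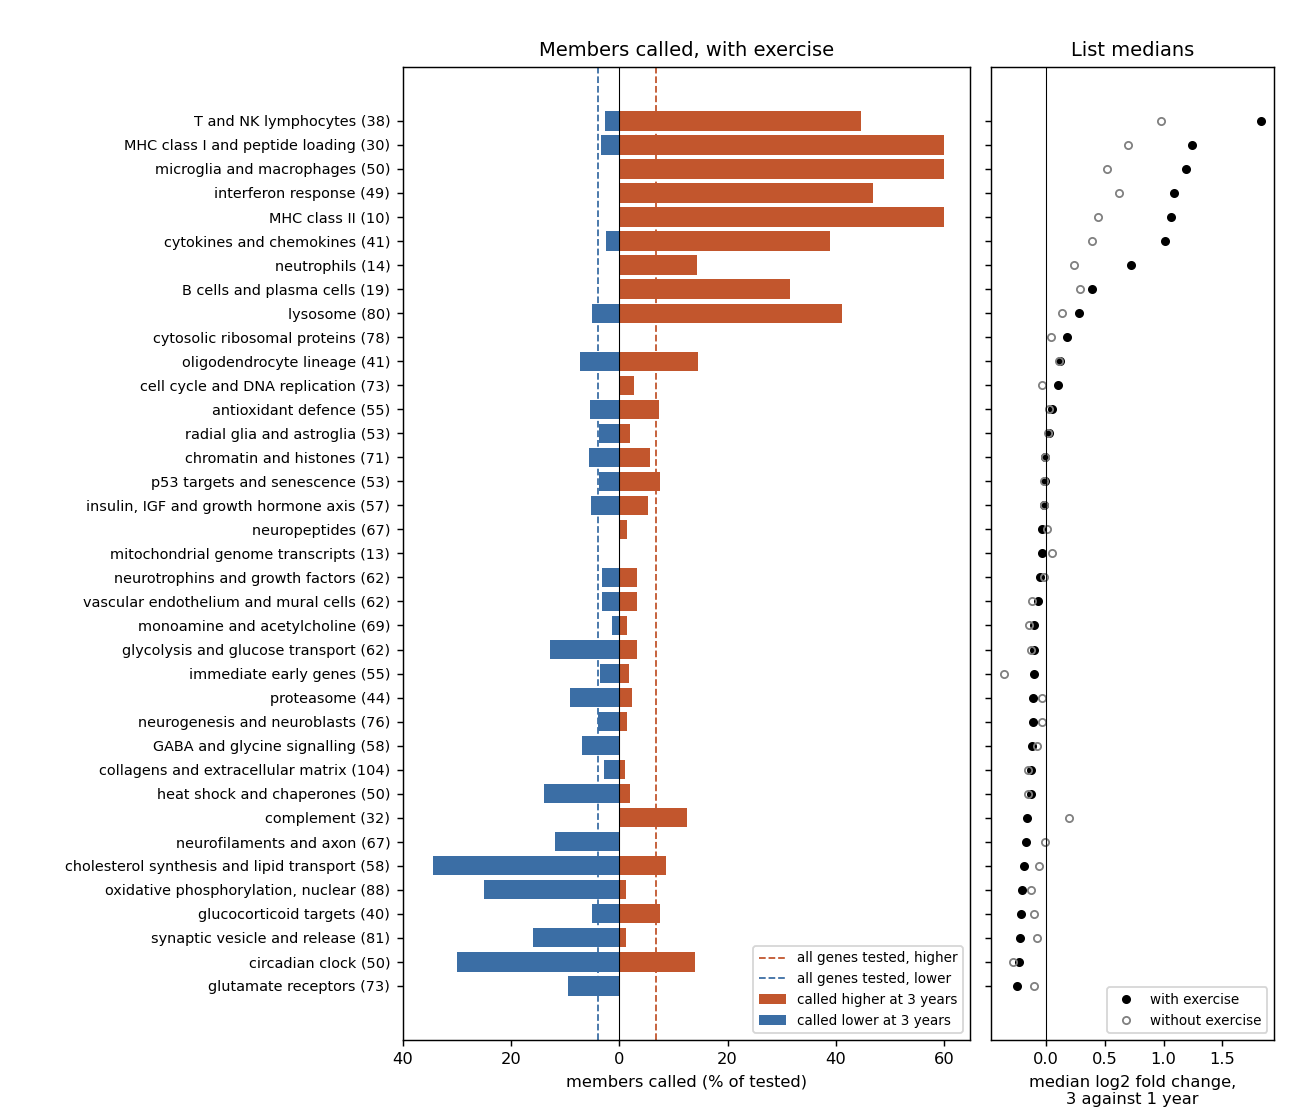
Left, the percentage of tested members called higher (orange, to the right) and lower (blue, to the left) at 3 years in exercised fish for 37 gene lists, with the number tested in brackets; dashed lines mark 6.77% and 3.88% of all genes tested. Right, each list's median log2 fold change with exercise (filled) and without (open); the T and NK list has the highest median (1.83), and the cholesterol, respiratory and clock lists the largest lower shares.

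Many genes of cholesterol synthesis were lower. Of 58 genes of cholesterol synthesis and lipid transport 20 fell and 5 rose, 34.5% and 8.62% against 3.88% and 6.77% of all genes, with a median log2 fold change of -0.19. SQLE (ENSDARG00000079946), which makes squalene epoxide, was at 34.2, 33.1, 21.3, 27.4 and 16.6 CPM at 1 year and at 8.41 ± 2.48 CPM in the older fish. It fell by 1.65 ± 0.29 in log2 units (adjusted p = 0.00407), the largest decrease among the called genes of this list. LSS, which closes the sterol rings, fell from 17.8 ± 4.13 to 7.55 ± 1.28 CPM, and MSMO1, a later methyl oxidase, from 44.8 ± 9.72 to 22.2 ± 4.11 CPM. Further called enzymes, named after their values were seen, were HMGCS1 (-1.06), PMVK (-1.57), FDPS (-0.56), FDFT1 (-0.67), CYP51A1 (-0.93), NSDHL (-1.01), EBP (-0.54), HSD17B7 (-0.66) and SC5D (-0.63). The regulator srebf2 (-0.57) and the low-density lipoprotein receptor gene ldlrb (-0.63) fell too. Of the 5 members that rose, NPC1 and 2 identifiers of NPC2 export cholesterol from lysosomes, and apoc1 is an apolipoprotein. The other, LBR, is a sterol reductase, so an enzyme of synthesis was also called higher, and it is an anchor of chromatin to the nuclear envelope too. Without 3-year exercised replicate 1, 1 member was called higher. Members called lower numbered 12 if replicate 4 of the 1-year group was left out and 13 without 3-year exercised replicate 1.

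cyp27a1.1, a sterol hydroxylase of cholesterol removal, was lower too. It stood at 17.6, 16.6, 16.7, 19 and 17.3 CPM in younger fish and at 10.6, 10.8, 12.9, 12.4 and 13.3 CPM in older fish. Both groups were narrow and well apart, with a log2 fold change of -0.54 ± 0.08 (adjusted p = 0.00179).

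Some genes of synapses and axons fell, while most members of their lists were not called. Of 81 genes of synaptic vesicles and release 13 fell and 1 rose, 16% lower against 3.88% of all genes, with a median log2 fold change of -0.22 and 65 negative. The score of this list was 6.43 to 6.62 at 1 year and 6.12 to 6.56 at 3 years, so the ages overlapped. SH3GL2, endophilin, which helps to recycle vesicle membrane, fell from a range of 485 to 537 CPM in younger fish to 281, 346, 363, 371 and 392 CPM in older fish. The ages were clearly apart, and the lowest 3-year library was replicate 1 (log2 fold change -0.54 ± 0.12, adjusted p = 0.01). SLC17A6 (ENSDARG00000041150), which loads vesicles with glutamate, fell from 87.7 ± 3.24 to 63.4 ± 6.77 CPM, and syt13, an unusual synaptotagmin, from 170.4 ± 11.5 to 127 ± 11.3 CPM. nsfb, a copy of the ATPase that recycles fusion proteins, was the member that rose (0.37 ± 0.08), while the log2 fold change of NSF was -0.40 and also called. Members called lower numbered 8, 6 and 6 without 1-year exercised replicates 3, 4 and 5, and 6 and 8 without 3-year exercised replicates 1 and 3.

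Of 73 genes of glutamate receptors and their partners 7 fell and 0 rose (9.59% lower against 3.88% of all genes), with a median log2 fold change of -0.25. The scores of the ages overlapped, at 5.63 to 5.91 at 1 year and 5.19 to 5.89 at 3 years. CACNG2 (ENSDARG00000032565), which brings AMPA receptors to the synapse, fell from 96.3 ± 14 to 66 ± 7.92 CPM (adjusted p = 0.00645). CACNG8 (ENSDARG00000070626), a relative of it, and the receptor gene GRM7 fell by 0.47 ± 0.12 and 0.41 ± 0.11 on the log2 scale. GRIN2B (ENSDARG00000079348), an NMDA receptor subunit, was at 94.7, 95.9, 140.4, 81.7 and 74.1 CPM in younger fish and at 22.9, 41.1, 52.7, 58.9 and 55.3 CPM in older fish. These groups did not overlap, but the gene was called in 6 of the 10 fits without 1 exercised library. The number of glutamate receptor genes called lower ran from 1 without 3-year exercised replicate 1 to 11 without 3-year exercised replicate 5, and was 4, 3, 3 and 3 without 1-year exercised replicates 1, 3 and 4 and 3-year exercised replicate 2. DESeq2 called 17 lower.

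Of 58 genes of GABA and glycine signalling 4 fell and 0 rose, 6.90% against 3.88% of all genes. GAD2, which makes the inhibitory transmitter GABA, stood at 1025, 1019.7, 951, 1114 and 1019.9 CPM in younger fish and at 461, 779, 717, 795 and 809 CPM in older fish. The older group was lower throughout, and 3-year exercised replicate 1 lay far below the other 4 (log2 fold change -0.53 ± 0.13, and -0.40 without that library, adjusted p = 0.0378). GAD1 (ENSDARG00000027419), SLC32A1, which loads GABA into vesicles, and GLRB (ENSDARG00000052782), of the glycine receptor, had log2 fold changes of -0.48 ± 0.14, -0.43 ± 0.13 and -0.47 ± 0.14. These 3 were called in 3, 2 and 3 of the 10 fits. Members called numbered 1 or 2 without 1-year exercised replicates 1, 3, 4 or 5 or 3-year exercised replicates 1, 3 or 4, and in the fit of the 10 exercised libraries alone, and 8 in DESeq2.

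Of 67 genes of neurofilaments and axons 8 fell and 0 rose (11.9% lower against 3.88% of all genes), with a median log2 fold change of -0.17. The scores of the ages overlapped, at 6.53 to 6.83 at 1 year and 6.47 to 6.75 at 3 years. KIF5B (ENSDARG00000074131), a motor of axonal transport, fell from 172 ± 8.42 to 132 ± 10.1 CPM with no overlap (adjusted p = 0.00374). The neurofilament gene nefla fell from 201 ± 57.3 to 102 ± 24.3 CPM, with ranges that overlapped. The tubulin genes tuba2 and tubb2b fell by 0.40 ± 0.09 and 0.44 ± 0.12 on the log2 scale. The count was 2 to 4 without 1-year exercised replicates 1, 3, 4 or 5 or without 3-year exercised replicates 1 or 3. Outside these lists, HDC, which makes histamine and in fish brain marks a small hypothalamic population of neurons, stood at 48.5, 59, 50.6, 53.8 and 50.2 CPM in younger fish and at 29.3, 32.9, 23.2, 33.4 and 20.6 CPM in older fish. It was the single lower member among 69 genes of monoamine and acetylcholine signalling, 1.45% against 3.88% of all genes. HDC was called in all 10 fits without 1 exercised library (log2 fold change -0.91 ± 0.15, adjusted p = 0.00336). Of 67 neuropeptide genes 1, POMC, was called, higher, 1.49% against 6.77% of all genes. Its value came from a single library, as given with the pituitary genes.

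Some nuclear genes of oxidative phosphorylation fell by small amounts. Of 88 tested 22 fell and 1, COX4I2, rose, 25.0% lower against 3.88% of all genes. The called decreases lay between -0.53 and -0.21. Of the 88, 80 had a negative log2 fold change, and the list median was -0.20. The list score was 6.43 to 6.82 at 1 year and 6.32 to 6.55 at 3 years, so the ages overlapped. CYC1, of complex III, stood at 209, 208, 233, 274 and 241 CPM in younger fish and at 175, 180.5, 173, 199 and 185 CPM in older fish. The highest 3-year library was just under the lowest 1-year library (log2 fold change -0.35 ± 0.07, adjusted p = 0.00753). UQCRFS1, also of complex III, cox6b2, of complex IV, and ATP5F1B, of the ATP synthase, fell by 0.35 ± 0.07, 0.32 ± 0.07 and 0.32 ± 0.07 on the log2 scale. The count of members called lower was 34, 14, 8 and 10 when 1-year exercised replicates 2, 3, 4 and 5 were left out in turn. It was 10, 14 and 12 for 3-year exercised replicates 1, 2 and 3. DESeq2 called 38. Of 13 transcripts of the mitochondrial genome 0 were called by edgeR or DESeq2 and 0 had an unadjusted p below 0.05, with a median log2 fold change of -0.03.

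Glycolysis, chaperones and the constitutive proteasome held smaller numbers of lower genes. Of 62 genes of glycolysis and glucose transport 8 fell and 2 rose, 12.9% and 3.23% against 3.88% and 6.77% of all genes. The median log2 fold change was -0.10, and DESeq2 called 11 lower and 2 higher. PKM (ENSDARG00000099730), the last step of glycolysis, fell from 1223 ± 127 to 906 ± 73.7 CPM (adjusted p = 0.00873), and TPI1 (ENSDARG00000040988) and pgam1a by 0.43 ± 0.08 and 0.54 ± 0.12 on the log2 scale. slc2a3b, a glucose transporter, went the other way, from 11 ± 0.934 to 23 ± 5.22 CPM, with no overlap. The other that rose was PYGB (0.21), a glycogen phosphorylase. Of 50 genes of heat shock proteins and chaperones 7 fell, 14% against 3.88% of all genes, and 1, DDIT3, was called higher, though in 2 of the 10 fits without 1 exercised library and not with RLE factors. DESeq2 called 11 lower. HSPE1 and HSPD1, the partners of the mitochondrial folding chamber, fell from 77.3 ± 5.46 to 59.7 ± 5.9 CPM and from 144 ± 14.3 to 110.2 ± 13.8 CPM. The HSPA4 identifiers ENSDARG00000004754 and ENSDARG00000018989 fell by 0.37 ± 0.09 and 0.30 ± 0.07 on the log2 scale, with ranges that overlapped. Of 44 proteasome genes 4 fell (2 PSMD11 identifiers, PSMD12 and PSMA6, ENSDARG00000019398) and 1, PSMG2, rose, 9.09% and 2.27% against 3.88% and 6.77% of all genes. Of the 44, 39 had a negative log2 fold change, and DESeq2 called 15 lower and 1 higher. The proteasome score was 5.77 to 6.07 at 1 year and 5.71 to 5.87 at 3 years, so the ages overlapped. Lower glycolytic genes numbered 4 or 5 without 1-year exercised replicates 3, 4 or 5 or 3-year exercised replicates 1 or 3, and lower proteasome genes 0 to 2 without 1-year exercised replicates 1, 3, 4 or 5 or 3-year exercised replicates 1, 2 or 3 and 7 without 1-year exercised replicate 2. Higher proteasome genes numbered 0 without 1-year exercised replicates 1, 2 or 3 or 3-year exercised replicates 1, 3 or 4, and 0 with RLE factors. Higher glycolytic genes numbered 2 without 1-year exercised replicate 1 and 1 without any other single exercised library.

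Cytosolic ribosomal protein genes leaned upward without passing the test. Of 78 tested 77 had a positive log2 fold change, with a median of 0.18, and edgeR called 0, with 2 higher and 1 lower at an unadjusted p below 0.05, and DESeq2 called 1, lower. The median was 0.08 without 3-year exercised replicate 1. The list score was 7.57 to 7.97 at 1 year and 7.73 to 8.28 at 3 years, so the ages overlapped.

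Among genes of radial glia and astroglia 1 of 53 rose and 2 fell, shares below or near those of all genes, and the median log2 fold change was 0.03. NOTCH1 (ENSDARG00000103554), a receptor of the Notch family, rose from 23.2 ± 1.51 to 32.8 ± 2.17 CPM (adjusted p = 0.00542). TNC (ENSDARG00000021948), a matrix protein of glia, stood at 184, 179, 159, 161 and 161 CPM in younger fish and at 109, 112, 104, 113 and 119 CPM in older fish, 2 groups far apart (log2 fold change -0.60 ± 0.12, adjusted p = 0.00744). GJB6, a connexin of astroglia in mammals, fell by 2.95 ± 0.82 on the log2 scale, with 12.8 CPM in 1-year exercised replicate 5 and 3.26 to 3.97 CPM in the other younger fish. GFAP, the glial filament often higher in old brains, was at 84.6 ± 15.6 CPM in younger fish and at 136, 78.8, 46.1, 85.1 and 56.8 CPM in older fish (log2 fold change -0.07 ± 0.21, adjusted p = 0.874). The older values spread to both sides of the younger ones.

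Among 41 genes of the oligodendrocyte lineage 6 rose and 3 fell, 14.6% and 7.32% against 6.77% and 3.88% of all genes. The median log2 fold change was 0.12, and 1 higher and 1 lower member were called in all 10 fits without 1 exercised library. The transcription factor genes OLIG2, SOX10 and nkx2.2b rose, while a marker of the intermediate stage of the lineage fell. OLIG2 was at 48.5, 57.5, 29, 47.5 and 36.2 CPM in younger fish and at 74.6, 67, 98, 71.5 and 59.8 CPM in older fish. The ages did not overlap (log2 fold change 0.76 ± 0.19, adjusted p = 0.0166). SOX10 rose from 32.2 ± 6.59 to 48.1 ± 9.96 CPM and PTPRZ1 (ENSDARG00000020871) from 163 ± 7.92 to 186 ± 8.77 CPM. GPR17, a receptor of cells about to make myelin, fell from 8.08 ± 1.46 to 4.29 ± 0.846 CPM, again with no overlap (adjusted p = 0.0136). The myelin gene mbpa was at 9106 ± 2665 and 9538 ± 1901 CPM, with an adjusted p of 0.89 in edgeR. Members called higher numbered 1 to 3 without 1-year exercised replicates 1, 3, 4 or 5 or 3-year exercised replicates 1 or 3. Lower members numbered 1 without 1-year exercised replicates 1, 4 or 5 or 3-year exercised replicates 1, 3, 4 or 5.

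Genes of dividing cells and of new neurons changed little as lists. Of 73 genes of cell cycle and DNA replication 2 rose and 0 fell, 2.74% higher against 6.77% of all genes. Among the 2 was the replication helicase gene MCM7, which rose from 23.8 ± 13.3 to 53.1 ± 15.6 CPM. The ages overlapped in MCM7, and it was called in 4 of the 10 fits without 1 exercised library. PCNA, the replication clamp, was at 54.8 ± 3.73 and 56.1 ± 4.28 CPM (a log2 fold change of 0.03 ± 0.07, adjusted p = 0.82). mki67, a marker of dividing cells, was at 5.9 ± 1.08 CPM in younger fish and at 19.1, 4.45, 8, 9.22 and 8.48 CPM in older fish, the first of these in the library with the highest immune scores (adjusted p = 0.119). Of 76 genes of neurogenesis 1, marcksl1a, a regulator of actin at the growing membrane, rose from 175 ± 13.6 to 236 ± 15.3 CPM with no overlap, and 3 fell (2 tubulin genes, tubb2b and TUBB2B, and NCAM1, ENSDARG00000056181). These make 1.32% and 3.95% against 6.77% and 3.88% of all genes, below and near those shares. Lower members of this list numbered 0 without 1-year exercised replicate 4 or 3-year exercised replicate 1, 1 without 1-year exercised replicates 1 or 3 or 3-year exercised replicates 2 or 3, 5 without 3-year exercised replicate 4 and 9 in DESeq2. Of 104 genes of collagens and matrix 1 rose and 3 fell, and of 62 vascular genes 2 rose and 2 fell, shares near or below those of all genes. Among the vascular genes, PROX1 and FLT4 differed in opposite directions, PROX1 from 21.3 ± 3.02 to 29.6 ± 3.92 CPM and FLT4 from 7.5 ± 0.761 to 4.56 ± 1.23 CPM, and were called in 5 and 1 of the 10 fits.

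The 3 smallest adjusted p-values of the comparison belonged to clock genes. rorcb, a nuclear receptor gene that activates transcription through clock-controlled elements, stood at 26.2, 24.6, 27.7, 25 and 27.7 CPM in younger fish and at 102, 120.0, 137, 112 and 106 CPM in older fish. All 3-year libraries were several-fold higher (log2 fold change 2.14 ± 0.15, adjusted p = 7.67e-07). Its relative rorca rose from 26 ± 1.91 to 56 ± 9.05 CPM (adjusted p = 6.2e-05). NR1D2, a repressor that acts on the same elements, was at 299, 290.1, 227, 243 and 207 CPM in younger fish and at 109, 126, 90.7, 80.1 and 81.4 CPM in older fish, and fell by 1.38 ± 0.13 in log2 units (adjusted p = 4.86e-05). PER1 (ENSDARG00000012499), a repressor of the clock, was at 106, 97.3, 95.6, 76.7 and 78 CPM in younger fish and at 41.1, 46, 41.7, 47.3 and 42.7 CPM in older fish. The older group was both lower and tighter (log2 fold change -1.05 ± 0.13, adjusted p = 0.000501). The second PER1 identifier, ENSDARG00000056885, fell from 12.4 ± 2.6 to 6.88 ± 2.32 CPM, and PER2, which light induces in fish, was at 182 ± 12 and 163 ± 19.4 CPM (adjusted p = 0.505).

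Of the 50 clock genes 7 rose and 15 fell, 14% and 30% against 6.77% and 3.88% of all genes. Activators and repressors were found on both sides. Named after their values were seen, the activators BMAL1 (ENSDARG00000006791) and bmal2 had log2 fold changes of 0.49 and 1.14, the repressors PER3 and CRY1 (ENSDARG00000011583) of -1.36 and -0.66, and the output factor gene dbpa of -0.98, while nfil3-5, an output repressor, stood at 1.53. The repressor genes cry3b (0.69) and nr1d4b (1.01) were higher, and the activator genes RORA (-0.66) and rorc (-1.15) lower. Members called lower numbered 9 if either replicate 1 or replicate 3 of the 1-year group was left out. Transcripts of the clock vary over the day, so the hour at which each fish was killed bears on every value of this list, and the labels do not state it. Age and hour therefore cannot be told apart for these genes.

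**Figure D4:**
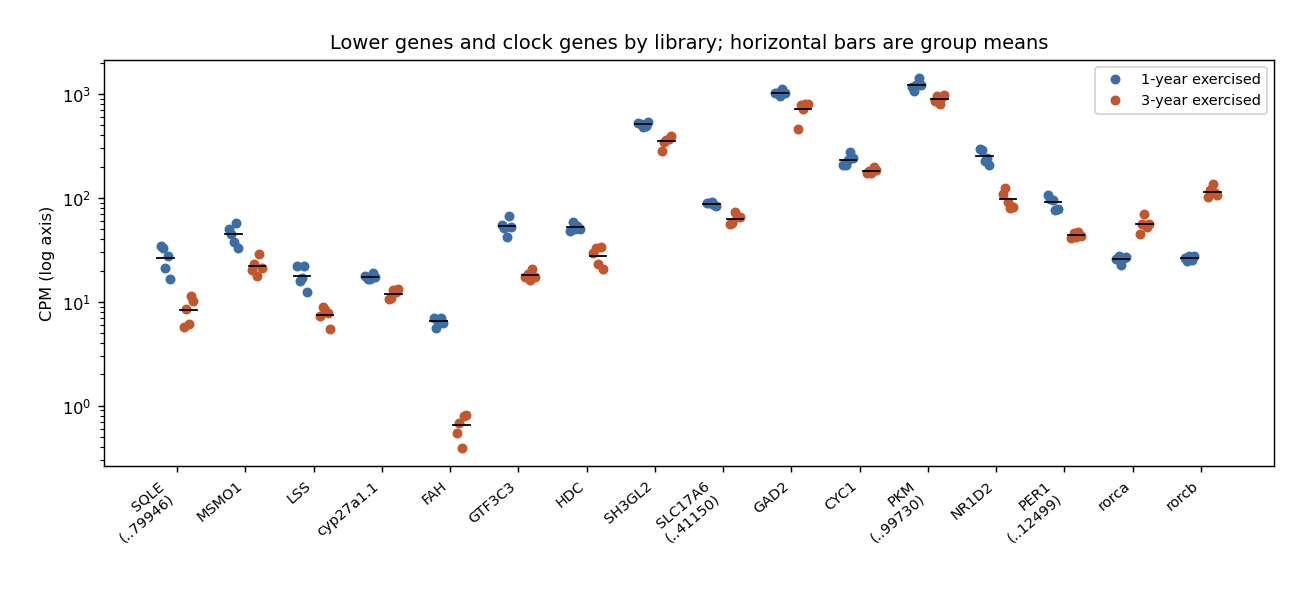
CPM on a log axis of 4 genes of cholesterol metabolism, 8 other lower genes and 4 clock genes in the 5 libraries of 1-year (blue) and of 3-year (orange) exercised fish, each point 1 library and each horizontal bar the group mean. In all 16 genes the ages do not overlap, but the genes were picked from called genes and do not stand for whole lists. At the right, rorca and rorcb are higher at 3 years, and the other 14 are lower.

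Genes of growth factor and stress signalling changed singly. IGFBP1, a binding protein of insulin-like growth factors that fasting and stress raise, stood at 15.9, 18.8, 31.6, 18.6 and 13 CPM in younger fish and at 4.97, 8.82, 3.82, 11 and 5.67 CPM in older fish. The groups were separate (log2 fold change -1.51 ± 0.35, adjusted p = 0.0137). IGF1 fell from 8.64 ± 1.41 to 6.21 ± 0.883 CPM with a slight overlap, and FOXO4, a transcription factor that insulin signals hold back, rose from 40.6 ± 2.11 to 54 ± 8.38 CPM. NR3C1, the glucocorticoid receptor, rose by 0.19 ± 0.05 on the log2 scale. Over the lists these come from, 3 of 57 genes of the insulin, IGF and growth hormone axis rose and 3 fell, and 3 of 40 glucocorticoid targets rose and 2 fell, 5.26% each way and 7.5% and 5% against 6.77% and 3.88% of all genes, so the shares lay near those of all genes. Without 3-year exercised replicate 1, 0 were called higher in either list. Of the insulin and IGF list 1 was called higher without 1-year exercised replicates 1, 4 or 5 and 1 lower without 1-year exercised replicates 3 or 5 or 3-year exercised replicate 1, and of the glucocorticoid list 1 was called higher without 1-year exercised replicates 3 or 4. Of 55 immediate early genes, which neurons switch on with activity, mcl1a rose and both PER1 identifiers fell, and PER1 is also on the clock list. They make 1.82% and 3.64% against 6.77% and 3.88% of all genes. The call of mcl1a was lost when any one 1-year exercised library or 3-year exercised replicate 1 was left out. Among growth factor genes, NRG1 (-0.64 ± 0.14) and NTRK3 (ENSDARG00000086214) (-0.55 ± 0.16) fell and FGFR1 (ENSDARG00000011190) (0.65 ± 0.17) and vegfba (0.29 ± 0.08) rose, 3.23% of 62 in each direction, below the shares of all genes. In this list 0 were called higher without 1-year exercised replicates 4 or 5 or 3-year exercised replicate 1. BDNF, a neurotrophin tied to exercise, was at 75.3 ± 12 CPM in younger fish and at 42.9, 64.3, 67.3, 69.2 and 68.2 CPM in older fish (log2 fold change -0.27 ± 0.19, adjusted p = 0.393). The mitochondrial regulator PPARGC1A (-0.27 ± 0.20), the VEGFA identifiers ENSDARG00000034700 (-0.06 ± 0.10) and ENSDARG00000103542 (-0.28 ± 0.12), the activity-induced genes egr1 (-0.10 ± 0.35) and NPAS4 (ENSDARG00000055752, -0.34 ± 0.56, and ENSDARG00000087753, -0.16 ± 0.27) and the lipid carrier gene apoeb (0.29 ± 0.29) were not called.

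Of 53 genes of p53 targets and senescence 4 rose and 2 fell, 7.55% and 3.77%, near the 6.77% and 3.88% of all genes. cdkn1a, which stops the cell cycle, was at 1.05, 0.759, 0.838, 0.93 and 0.897 CPM in younger fish and at 1.8, 1.92, 1.11, 2.22 and 1.55 CPM in older fish. The levels were near 1 CPM, and the ages did not overlap (log2 fold change 0.94 ± 0.25, adjusted p = 0.0225). The death genes baxb, fas and casp8 had log2 fold changes of 0.70, 1.84 and 0.99. RRM2B, a p53-induced supplier of nucleotides for repair, fell by 1.04 ± 0.28 and tp53inp2, which aids autophagy, by 0.51 ± 0.10 on the log2 scale. Members called higher numbered 0 without 3-year exercised replicate 1 and 1 or 2 when any single 1-year exercised library was left out. Among 71 chromatin genes 4 rose and 4 fell, 5.63% each way and also near those shares, with ehmt1a, a histone methyltransferase, up from 19.5 ± 1.92 to 26.6 ± 2.75 CPM and hist2h2l, a histone gene, down from 168 ± 19.7 to 123 ± 12.1 CPM. The higher count was 1 without 3-year exercised replicate 1, the lower count was 1 without 1-year exercised replicate 3, and DESeq2 called 6 higher and 9 lower. Of 55 genes of antioxidant defence 4 rose and 3 fell, 7.27% and 5.45%, again near all genes, with 0 called higher without 3-year exercised replicate 1 and 2 when any single 1-year exercised library or 3-year exercised replicate 4 was left out. Lower members numbered 0 without 1-year exercised replicates 3 or 4 or 3-year exercised replicate 1.

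Genes of muscle, retina and pituitary were raised in 1 to 3 libraries of the 10. The summed level of the 52 skeletal muscle genes was 403 to 864 CPM at 1 year and 416 to 2071 CPM at 3 years, with none at 0 counts throughout either group. myhz1.1, a fast myosin heavy chain, was at 0.295 to 1.31 CPM in younger fish and at 10.1, 0.394, 0.294, 48.7 and 0.585 CPM in older fish, so that replicates 1 and 4 held the high values (log2 fold change 4.48 ± 1.11, adjusted p = 0.0178). It was 1 of 3 muscle genes called higher among 48 tested, with myhz2 and myhz1.2, 6.25% against 6.77% of all genes. The part of muscle RNA in other results was not tested. Without 3-year exercised replicate 4, 0 of the 3 were called, and likewise 0 in the fit of the 10 exercised libraries alone. The 22 pituitary genes summed to 55.4 to 72.8 CPM at 1 year and to 62.5 to 1589 CPM at 3 years, with 1 gene at 0 counts throughout the 1-year libraries. The hormone genes POMC, smtlb and prl stood at 169.7, 116 and 29 CPM in 3-year exercised replicate 1. The highest values in the other 9 libraries were 2.65, 2.08 and 0.902 CPM, and without that library the adjusted p-values were 0.685, 0.426 and 0.645. Of 44 tested retina and pineal genes 0 were called by edgeR, with 1 higher and 1 lower at an unadjusted p below 0.05 and likewise by DESeq2, and 4 were called higher without 1-year exercised replicate 3, with summed levels of 636 to 1392 CPM at 1 year and 554 to 1249 CPM at 3 years. stm, the otolith matrix gene starmaker, rose from 57.2 ± 28.8 to 167 ± 96.2 CPM with overlap (adjusted p = 0.0171). tfr1b, a transferrin receptor on the red cell list, fell from 101 ± 3.23 to 71.2 ± 3.37 CPM with no overlap (adjusted p = 0.00635). The erythrocyte list as a whole summed to 761 to 965 CPM at 1 year and 728 to 977 CPM at 3 years. Of its 21 tested genes 1 was higher and 2 lower, 4.76% and 9.52% against 6.77% and 3.88% of all genes. Of 35 inner ear genes 1 rose and 2 fell, 2.86% and 5.71% against 6.77% and 3.88% of all genes. Of 39 epidermal genes 0 rose and 1 fell, 2.56% lower. Of 32 choroid plexus and ependymal genes 2 rose and 0 fell, FOXJ1, the regulator of motile cilia, and AQP1 (ENSDARG00000023713), a water channel. The 6.25% of this list lay below the 6.77% of all genes, and 0 were called higher without 1-year exercised replicates 1, 3 or 4 or 3-year exercised replicates 1 or 2. Of 33 meningeal genes edgeR called 0 and DESeq2 1, lower, with 1 higher and 1 lower at an unadjusted p below 0.05. Of 22 olfactory genes neither tool called any, with 3 lower at an unadjusted p below 0.05 in edgeR.

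The same contrast without exercise called fewer genes, 124 against 2252 after adjustment and 2983 against 5573 at an unadjusted p below 0.05. Between 3-year and 1-year unexercised fish 124 genes were called (0.586% of genes tested), 47 higher and 77 lower, and 92 of them were also called with exercise. These 92 make 74.2% of the calls without exercise and 4.09% of those with it, and all 92 had the same direction in both. Of the 2252 genes called with exercise 2163 (96%) had the same sign without it, against 71.5% of all genes. Their median log2 fold changes without exercise were 0.51 for increases and -0.23 for decreases, compared with 1.15 and -0.42 with exercise. These genes were chosen by the test with exercise, which tends to enlarge their fold changes there. The 2 sets of medians therefore do not show whether the age effects differ in size. Across all genes the log2 fold changes of both contrasts had a Pearson's r of 0.44 and a Spearman's rho of 0.51, a description over genes of 1 fit, which are not independent. The 2 contrasts share no libraries. The median SD of log2 CPM within a group was 0.206 in 1-year exercised, 0.278 in 1-year unexercised, 0.261 in 3-year exercised and 0.263 in 3-year unexercised fish.

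A gene called in one contrast and not in the other is not thereby shown to differ between them, and the test of the difference itself called 1 gene of 21148 (0.00473%). In 1004 genes (4.75%) the unadjusted p was below 0.05. The gene called was cyp27a1.1, which was at 17.4 ± 0.955 and 12 ± 1.2 CPM at 1 and 3 years with exercise and at 18.5 ± 1.7 and 21.1 ± 0.835 CPM without. Subtracting the second age effect from the first gave -0.73 ± 0.11 in log2 units (adjusted p = 0.0485), and DESeq2 called this gene too. It was called in 2 of the 20 fits that left out a library, which left out either replicate 3 of the 1-year unexercised or replicate 5 of the 3-year exercised group. Among the genes with the next smallest p, the log2 difference was 1.08 ± 0.22 for TBC1D31, a protein of the centrosome, -0.54 ± 0.12 for ADCK1, a mitochondrial kinase-like protein, and -1.65 ± 0.37 for tmem79b (adjusted p = 0.696 for each). DDB2, a sensor of DNA damage, and PER2 were called without exercise and not with it. DDB2 fell from 21.4 ± 2.02 to 10.6 ± 1.49 CPM in unexercised fish and was at 13.5 ± 0.893 and 11.3 ± 1.49 CPM in exercised fish, and PER2 from 175 ± 53.6 to 83.6 ± 4.01 CPM against 182 ± 12 and 163 ± 19.4 CPM. The differences of 0.75 ± 0.15 and 0.91 ± 0.19 did not pass the adjustment (adjusted p = 0.696 for each).

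The microglial, MHC class I and T and NK lists leaned the same way without exercise, with smaller medians and few calls, while the complement list had a median of 0.20 there against -0.16 with exercise. Without exercise the microglial list had a median log2 fold change of 0.52 and the MHC class I list of 0.70, with 0 members called in either by edgeR, and the T and NK list of 0.98, with 2 called, both shared with the clock list. Of all genes 0.586% were called without exercise, so 0 calls in lists of 50 and 30 tested genes lay near that share. The microglial scores of unexercised fish were 2.95 to 4.11 at 1 year and at least 3.63 at 3 years, so the ages overlapped, with the highest young value in 1-year unexercised replicate 1. That library also had the highest muscle score (4.88) and epidermis score (5.09) of all 20. The clock list was alike in both contrasts in its counts, with 8 of 50 called higher and 15 lower without exercise, where 0.586% of all genes were called. With exercise its shares were 14% higher and 30% lower, where 10.6% of all genes were called. For rorcb the log2 fold change was 2.47 ± 0.16 without exercise and for NR1D2 -1.46 ± 0.13. SQLE (ENSDARG00000079946) was at -0.61 ± 0.28 (adjusted p = 0.332), and the difference between its age effects, -1.04 ± 0.40, had an adjusted p of 0.982.

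**Figure D5:**
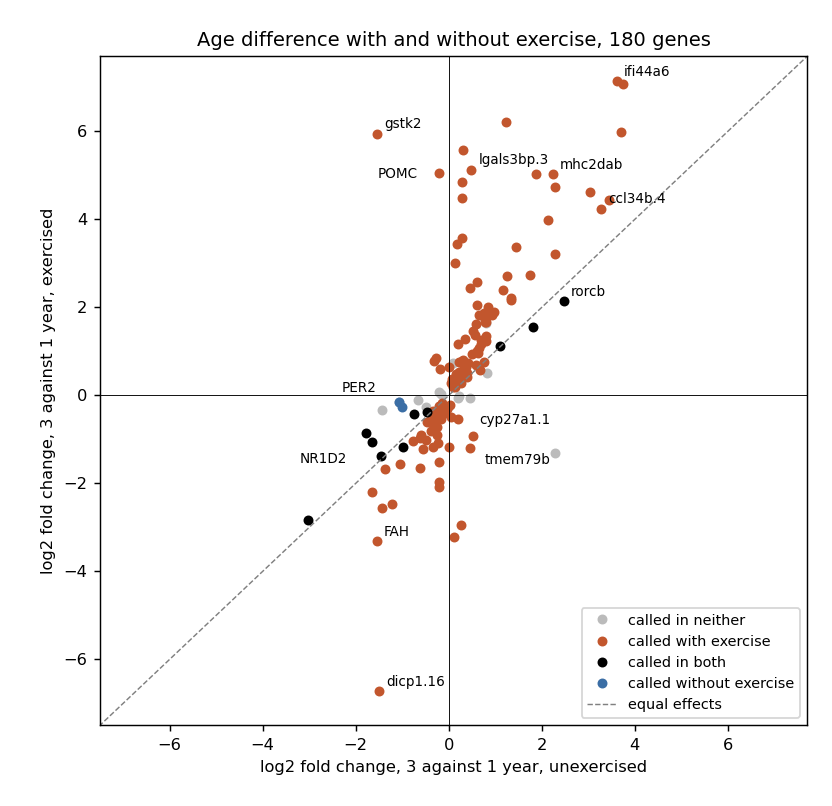
Log2 fold change of 3 against 1 year in unexercised fish (horizontal) and in exercised fish (vertical) for the 180 genes of the naming rule, coloured by the contrast in which each was called; the dashed line marks equal effects. The clock genes rorcb and NR1D2 lie near the line, while PER2, also a clock gene, lies off it. dicp1.16 and gstk2 lie far from it, but dicp1.16 had 1 count in the 3-year and gstk2 2 counts in the 1-year exercised libraries. The difference between the age effects was called only for cyp27a1.1.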

How the data were processed

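RNA of 20 zebrafish brain libraries was sequenced after TruSeq RNA v2 preparation, per the labels' protocols, which does not mark strand, so overlapping antisense genes cannot be told apart. The authors deposited whole-number read counts per gene for 32105 identifiers. Tools listed in the submitters' processing notes, with no role given, are featureCounts 1.4.6-p4, STAR 2.4.1d and bcl2fastq 1.8.4, and the listed build is GRCz10. A deposited RPKM table was not used. Gene names came from a reference table that matched 26269 identifiers; 4144 share a symbol and are given with their identifier, and capital letters mark names given in human style.

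The deposited counts of all 20 libraries were fitted together by group in edgeR 4.0.16 (R 4.3.3) with TMM scaling, the default low-count filter (minimum count 10, minimum total 15) and the robust quasi-likelihood test, and p-values were adjusted by Benjamini-Hochberg over 21148 genes. All adjusted p-values are of this test unless DESeq2 1.42.0 is named; called means an adjusted p below 0.05. A log2 fold change is given with a standard error, and a mean CPM with the SD over 5 libraries. That standard error was derived from the test, as the absolute log2 fold change divided by the square root of the F statistic. List scores used a prior count of 2. The steps were tested on simulated data. Groups came from the age and perturbation labels; replicate numbers only name libraries. Total counts set the precision of low values, and counting intervals cover counting error only.

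Genes named were the 12 largest called, non-overlapping changes per direction with a mean of at least 1 CPM, up to 4 called members of each of 46 lists by adjusted p, the 10 genes with the smallest p for the difference between age effects, and a set from ageing and exercise work. Comparisons and lists were chosen with earlier results of these data known. Alternatives were RLE factors, no filter, DESeq2, the 10 exercised libraries alone, leaving out each library, and leaving out 4 exercised libraries with raised other-tissue scores. A few genes that the rule names are not reported here. Promoter and protein sequences were not used here.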

Additional observations from a re-analysis of the deposited data

Results flagged for a closer look

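In groups of 5, a library was picked out where its gap to the nearest other value exceeded 0.71 of the group's range. Chance alone picks about 1 in 20 groups, and 24 values were picked out in 268 gene groups (134 genes at both ages). Of the 24, 13 belonged to 3-year exercised replicate 1. That library was far above the other 4 of its group in POMC (169.7 CPM against 0.673 to 2.65 CPM), PROX1 (36.6 CPM against 27.5 to 28.7 CPM), c1qb (10.2 CPM against 3.92 to 4.96 CPM), c1qc (18.3 CPM against 6 to 9.5 CPM), cfp (29.9 CPM against 6.6 to 13.2 CPM), ctss2.2 (36.2 CPM against 13.3 to 19.6 CPM), grna (176 CPM against 58.9 to 91.6 CPM), ifi30a (35.9 CPM against 17.8 to 19.6 CPM), irf2b (14.8 CPM against 7.74 to 9.46 CPM), prl (29 CPM against 0.468 to 0.902 CPM) and smtlb (116 CPM against 0 to 2.08 CPM). It was far below them in BDNF (42.9 CPM against 64.3 to 69.2 CPM) and GAD2 (461 CPM against 717 to 809 CPM). Its lysosome score, 5.03, stood apart from 4.64 to 4.74 in the others. The same library had the highest muscle and pituitary scores of the 10, and their part in these values was not tested.

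The remaining values came from 6 libraries. In 1-year exercised replicate 2 they were HSPA4 (ENSDARG00000004754) (90.8 CPM against 105 to 108 CPM), cyp2k16 (0.937 CPM against 1.23 to 1.31 CPM), mbpa (13742 CPM against 7475 to 9004 CPM) and tuba2 (395 CPM against 479 to 499.6 CPM). In 1-year exercised replicate 4 they were dicp1.16 (0.0344 CPM against 1.21 to 1.53 CPM), myhz1.1 (1.31 CPM against 0.295 to 0.446 CPM) and tp53inp2 (19.3 CPM against 16.5 to 17.2 CPM). In 1-year exercised replicate 5 it was GJB6 (12.8 CPM against 3.26 to 3.97 CPM). In 3-year exercised replicate 3 it was dicp1.16 (0.0327 CPM against 0 to 0 CPM), which is 1 count. In 3-year exercised replicate 4 they were lgals3bp.3 (9.13 CPM against 4.17 to 5.55 CPM) and myhz1.1 (48.7 CPM against 0.294 to 10.1 CPM). The retina and pineal score of 1-year exercised replicate 3 was 3.11, against 0.50 to 0.94 in the others.

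Across the 2 exercise conditions, the age effect on cyp27a1.1 differed by -0.73 in log2 units (adjusted p = 0.0485), as given above.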

How the results depend on the processing

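Directions were steadier than counts, though all these fits reuse libraries that gave the calls. DESeq2 called 3405 genes with exercise, 1505 of them lower; RLE factors gave 2380, the 10 exercised libraries alone 2267 and no filter 2024. Leaving out 1 library at a time gave 899 to 2643 calls, 569 to 1655 higher and 330 to 988 lower, the lowest without 3-year exercised replicate 1 and the highest without 1-year unexercised replicate 1. Without the 4 exercised libraries with raised other-tissue scores, 9 genes were called, 4 higher and 5 lower, from 4 libraries against 2, and POMC (-0.41), myhz1.1 (-0.41) and prl (-0.09) changed sign. For the difference between the age effects, 0 genes were called in edgeR without a filter, 0 without those 4 libraries and 0 to 1 without 1 library, against 1 in the main result and 13 in DESeq2; 1004 genes had an unadjusted p below 0.05. The 134 genes examined included some, such as BDNF, that were not called in the main result and had no call to lose. Of the 134, 34 lost their call without 3-year exercised replicate 1, and 1 with RLE factors. Without the 4 libraries 112 did so, apart from the 3 that changed sign. In DESeq2 130 of the 134 were compared, and 0 of these lost their call. The others were not compared, so a loss among them is not counted. Of the pituitary list 2 members were called higher in the main result and 0 in DESeq2. The causes were not tested. No paired analysis was possible because the labels give no replicate numbers shared by the groups. Genes near 1 CPM have few counts and wide errors.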
